A study of Ostrinia furnacalis with 30 samples.

Results

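Hemocytins and phenoloxidase subunits are proteins of the blood cells of insects. Prophenoloxidase is the inactive form of the enzyme that oxidises phenols during melanization, the reaction that darkens wounds and coats invading parasites. In Lepidoptera it is made by hemocytes called oenocytoids, is released into the plasma and is cleaved there by clip-domain serine proteases. These are among the phenoloxidase-activating factors. In the silkworm the enzyme is built from subunit 1 and subunit 2, each encoded by its own gene. Hemocytin is a large adhesive protein of hemocytes, related to hemolectin of Drosophila and to the von Willebrand factor of vertebrates, and takes part in the clumping of hemocytes into nodules.

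In the Asian corn borer, Ostrinia furnacalis, 7 gene models carried one of these descriptions, out of 17284 annotated gene models and 20852 gene models in all. They were found by name alone, as annotated models described as a hemocytin or as a phenoloxidase subunit, leaving out the phenoloxidase-activating factors. This gave 4 models described as phenoloxidase subunits and 3 described as hemocytin-like. The mRNA libraries came from wild type insects with no treatment named in the labels. Whole animals were sampled as embryos (labelled Egg), 1st, 3rd and 5th instar larvae, pupae and adults, and the hemolymph, midgut, fat body and silk gland were taken from 3rd instar larvae. Each of these 10 groups had 3 libraries, 30 in all, and according to the methods each library pooled several animals, with females and males mixed in pupae and adults. Hemolymph was bled from a cut proleg and was not sorted, so that plasma and all hemocyte classes were sampled together.

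Between 10908503 and 17774377 fragments per library were assigned to gene models. Levels are given as FPKM, the fragments per kilobase of gene model and per unit of library size, after a scaling between libraries by the authors, and each is followed by its SD over 3 libraries. The hemolymph libraries held little signal of solid tissues. Cuticle protein models (128) summed to between 4.25 and 6.79 FPKM there against at least 93748 FPKM in whole 3rd instar larvae, 16 muscle models to between 97.8 and 115 FPKM, and 10 fat body models to between 2311 and 2896 FPKM against at least 134881 FPKM in fat body. The fat body list, made by description, takes in microvitellogenin-like LOC114365729 and LOC114365762, which were hemolymph genes here. Their means were 715 and 1456 FPKM in hemolymph against 1.06 and 1.56 FPKM in fat body, so most of that hemolymph sum was theirs. A list of 14 hemocyte markers (integrin beta, peroxidasin, draper, nimrod, croquemort, hemolectin and collagen IV models) had 8 models called higher and 3 called lower in hemolymph than in silk gland among 14 tested (median log2 fold change 2.01). In that comparison 18.8% of all genes were called higher and 21.3% lower. The summed level of the list, between 1319 and 1786 FPKM in hemolymph and between 7868 and 9794 FPKM in silk gland, was nevertheless higher in silk gland. In fat body it was between 830 and 1310 FPKM, close to hemolymph. In such bulk samples a larger number of cells of one type and more RNA per cell cannot be told apart.

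The 4 phenoloxidase subunit models lie on 4 scaffolds of the genome assembly used for mapping. LOC114361886, described as phenoloxidase subunit 2-like, extends from 152491 to 161335 on the minus strand of NW_021136293.1 and its model is 2759 bases long. LOC114356121, described as subunit 1-like, lies on the plus strand of NW_021132902.1 from 355732 to 363682 with a model of 1986 bases. LOC114359986, also subunit 1-like, lies on the minus strand of NW_021135019.1 from 70293 to 79929 with a model of 2542 bases. The last one, LOC114354345, is described as subunit 2-like but is a single stretch of 253 bases, from 1870 to 2122 on the minus strand of NW_021132280.1, and is the only gene model on that scaffold. All 4 are annotated as protein coding. A short model may share fragments with a longer copy of the same gene, and the methods name RSEM, which divides such fragments between models by estimation. The recovered fragments were whole numbers, so that how shared fragments entered these values is not known.

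Of the 3 hemocytin-like models, LOC114359501 (40324 to 75106) and LOC114359502 (75461 to 110188) follow each other on the plus strand of NW_021134678.1 with 354 bases between them. LOC114359501 is listed with an F5/F8 type C (discoidin) domain and LOC114359502 with a von Willebrand type D domain, both parts of the hemocytin of other insects. Their models are 7959 and 5882 bases long. A further model on the same strand, LOC114359500, described as SCO-spondin-like, ends 1781 bases before LOC114359501. The remaining hemocytin-like model, LOC114363052, lies on the plus strand of NW_021137185.1 from 321130 to 346749, and its model is only 1707 bases long within a span of 25620 bases.

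The comparison of tissues asks where in the 3rd instar larva these genes are transcribed. Every one of the 7 models was most abundant in hemolymph, and in each the lowest hemolymph library lay above the highest of the 27 other libraries. The smallest such gap was 10.4-fold, in LOC114363052, and the widest was 48.5-fold, in LOC114356121. The plot of all libraries shows this separation for each model. How many of all gene models have such a gap was not counted, so it is given as a description. The shares of all genes called higher in hemolymph are given with the tests below.

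**Figure D1:**
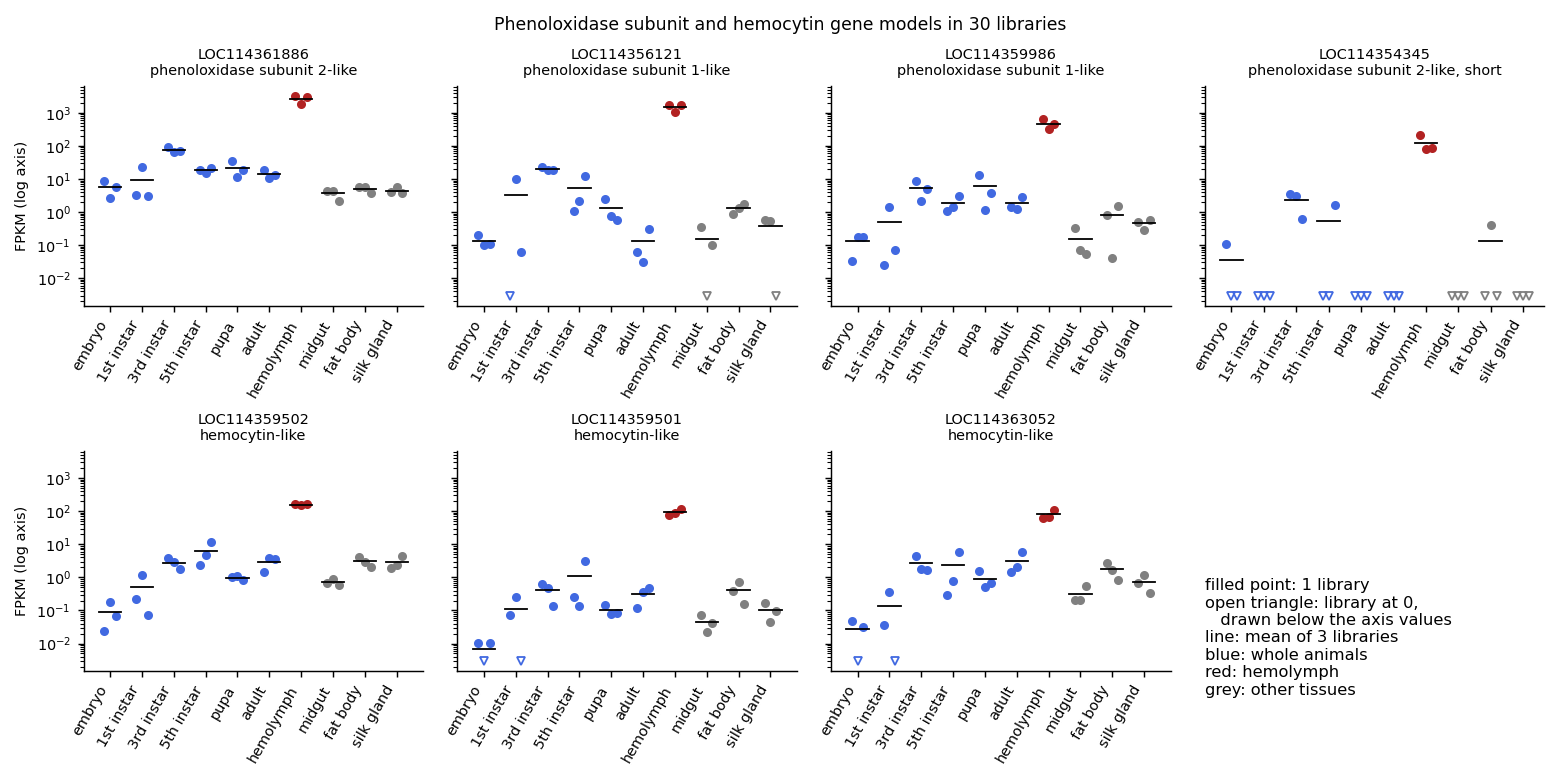
FPKM of the 7 gene models in each of the 30 libraries, on a log axis shared by all panels. Points are libraries, lines are means of 3 libraries, and open triangles mark libraries with no fragment, drawn below the lowest measured value. The 3 hemolymph libraries (red) lie above every other library in each panel, by 10.4-fold in LOC114363052 and by 48.5-fold in LOC114356121.

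Subunit 2-like LOC114361886 reached 3306, 1800 and 3025 FPKM in the 3 hemolymph libraries, a mean of 2710.0 ± 801 (SD, n = 3), which placed it 8th among all gene models by mean level in hemolymph. It was at 4.47, 4.39 and 2.23 FPKM in midgut, at 5.59, 5.63 and 3.81 FPKM in fat body and at 3.92, 5.60 and 3.83 FPKM in silk gland. The other tissues overlapped each other and none came near hemolymph, whose mean was 733 times that of midgut, 541 times that of fat body and 609 times that of silk gland. On the log2(FPKM + 1) scale, which understates the change of genes near 0, the differences were 9.17 ± 0.30 (standard error), 8.78 ± 0.28 and 8.93 ± 0.26.

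Subunit 1-like LOC114356121 was at 1691, 1091 and 1752 FPKM in hemolymph (mean 1512 ± 365, n = 3), the 54th highest mean level there. In midgut the 3 libraries gave 0.363, 0 and 0.101 FPKM, in silk gland 0.564, 0.549 and 0 FPKM, and in fat body 0.903, 1.30 and 1.80 FPKM. It was thus nearly absent outside hemolymph, with 13 fragments in the 3 midgut libraries together and 12 in those of silk gland, against 220792 in hemolymph. Its hemolymph mean was 1133 times the fat body mean. Among all genes tested, its log2 fold change was the 2nd largest against midgut (10.34 ± 0.22), fat body (9.33 ± 0.25) and silk gland (10.11 ± 0.26).

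The other subunit 1-like model, LOC114359986, was at 640, 332 and 455 FPKM in hemolymph, a mean of 476 ± 155 (n = 3). Between 0.0408 and 1.56 FPKM were measured in the 9 libraries of the other tissues. The hemolymph mean was 594 times that of fat body and 1025 times that of silk gland, and no library of another tissue reached its lowest hemolymph value. In all 3 hemolymph libraries the order of these longer models was the same, LOC114361886 before LOC114356121 before LOC114359986, and replicate 2 was the lowest of the 3 libraries for each of them.

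The short subunit 2-like model LOC114354345 had 209, 82.6 and 88.4 FPKM in hemolymph (mean 127 ± 71.5, n = 3), from 2331 fragments. It had no fragment in any midgut or silk gland library and 1 fragment in fat body. Its hemolymph level was therefore at least 430-fold higher than in midgut and at least 173-fold higher than in silk gland, taking 3 fragments over the group of 3 libraries as the limit that a count of 0 allows. Such limits cover counting error only. Replicate 1 stood above the other hemolymph libraries for this model, whereas LOC114361886 was similar in replicates 1 and 3, so that the ratio of the subunit 2-like models varied from 15.8 to 34.2 within hemolymph.

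The hemocytin-like models were less abundant in hemolymph than the 3 longer phenoloxidase subunit models and overlapped the short model LOC114354345. LOC114359502 was at 160, 150 and 166 FPKM in hemolymph, with the smallest spread of all 7 models (159 ± 8.13, n = 3). LOC114359501 was at 79.2, 89.9 and 118 FPKM (95.7 ± 20.0), and LOC114363052 at 62.8, 67.1 and 112 FPKM (80.6 ± 27.2). For these last models replicate 3 was the highest, and replicate 2, the lowest library for the longer phenoloxidase subunit models, was not the lowest for them.

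Outside hemolymph the hemocytin-like models differed in how far they fell. LOC114359502 kept 4.13, 2.96 and 2.06 FPKM in fat body and 1.87, 2.44 and 4.42 FPKM in silk gland, and its hemolymph mean was 52.1 times that of fat body and 219 times that of midgut. LOC114359501 was at 0.376, 0.729 and 0.154 FPKM in fat body and at no more than 0.164 FPKM in midgut and silk gland, and its hemolymph mean was 228 times that of fat body and 2101 times that of midgut. LOC114363052 was at 2.73, 1.64 and 0.836 FPKM in fat body, a mean 46.4 times below that of hemolymph.

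By limma-trend with Benjamini-Hochberg adjustment over all genes tested, and a threshold of 0.05 for the adjusted p and of 1 for the log2 fold change, all 7 models passed the test as higher in hemolymph than in midgut, than in fat body and than in silk gland. The adjusted p ran from 2.12e-08 to 1.80e-05 and the log2 fold changes from 4.91 to 10.34, with standard errors of 0.15 to 0.38. Of all genes tested, 17.9% were called higher in hemolymph than in midgut, 16.5% than in fat body and 18.8% than in silk gland. In all 3 comparisons together 824 of 9238 genes were called, or 8.92%. A gene had to reach 1 FPKM in 3 of 6 libraries to be tested, and apart from LOC114361886 in all tissues and LOC114359502 in fat body and silk gland the members did so only through hemolymph. The 3 comparisons also share the hemolymph libraries.

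**Figure D2:**
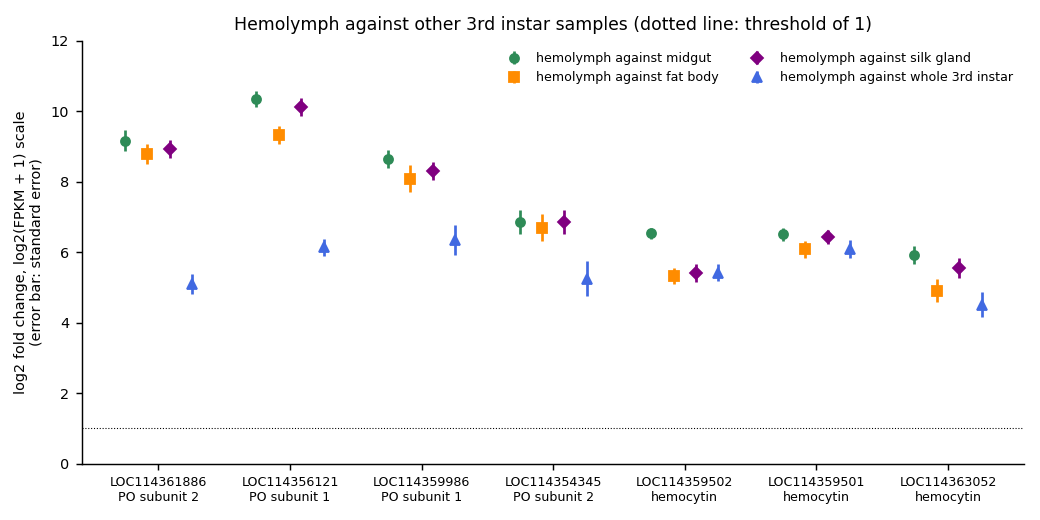
Log2 fold change of each gene model between hemolymph and the midgut, fat body, silk gland or whole body of 3rd instar larvae, on the log2(FPKM + 1) scale, with standard errors from limma-trend. The dotted line marks the threshold of 1. All values lie between 4.52 and 10.34, and the longer phenoloxidase subunit models lie highest against the other tissues.

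Among the other tissues only LOC114359502 passed the test. It was lower in midgut, at 0.699, 0.910 and 0.569 FPKM, than in fat body (log2 fold change -1.20 ± 0.26, adjusted p = 0.00769 by limma-trend) and than in silk gland (-1.13 ± 0.29, adjusted p = 0.0148). The midgut libraries did not overlap those of either tissue. For midgut against fat body 2 models were tested and 16% of all genes were called lower in midgut, and for midgut against silk gland 2 models were tested and 16.6% were. With libraries scaled by their recovered fragments the difference from fat body was -0.69 and under the threshold, and without silk gland replicate 3 the difference from silk gland was -0.87. Between fat body and silk gland, where 33.5% of all genes were called in either direction, 3 models were tested and none was called, also not by limma-voom or at an unadjusted p under 0.05 (0 models in each case). Over the 6 pairs of tissues, 23 of 28 tests of a member were called, 21 of them in comparisons with hemolymph. Of all tests of a gene 38% were called, but as most members were tested only through their high level in hemolymph the shares are not comparable.

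Whole 3rd instar larvae contain hemolymph among other tissues. All 7 models were higher in hemolymph than in the whole animal of the same instar, where 19.4% of all genes were called higher, with adjusted p between 2.35e-06 and 1.14e-04 (limma-trend). The log2 fold changes ran from 4.52 ± 0.35 in LOC114363052 to 6.34 ± 0.43 in LOC114359986. The whole-body level of LOC114361886 was 2.81% of its hemolymph level, that of LOC114356121 1.33%, that of LOC114359986 1.10% and that of LOC114359501 0.430%. The 7 models thus ranged from 0.430% to 3.27%, the last in LOC114363052.

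Taken as fragments, the 4 phenoloxidase subunit models made up 19753 ± 4908 of every 1000000 recovered fragments in hemolymph (14093 to 22821, n = 3). They made up 194 ± 19.1 in whole 3rd instar larvae, 133 ± 93.5 in pupae, 57.7 ± 18.1 in 5th instar larvae and 10.3 ± 0.229 in fat body. The 3 hemocytin-like models made up 3116 ± 465 of every 1000000 in hemolymph, 17.3 ± 3.87 in whole 3rd instar larvae and 41.0 ± 35.8 in 5th instar larvae. These sums do not depend on the authors' scaling between libraries but weigh longer models more.

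The comparison of stages asks when these genes are transcribed in the whole animal. The mean levels of the phenoloxidase subunit models LOC114361886, LOC114356121 and LOC114354345 were highest in 3rd instar larvae, that of LOC114359986 in pupae, and those of the hemocytin-like models in 5th instar larvae or adults. Over all 15 pairs of stages, 30 of 61 tests of a member were called (49.2%, against 40.9% of all tests of a gene). Against embryos and 1st instar larvae the members other than LOC114361886 could be tested only through the later stage. The values are given model by model.

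LOC114361886 was the only member present above 1 FPKM in every library of every stage. It was at 8.94, 2.73 and 5.72 FPKM in embryos, at 3.37, 22.4 and 3.16 FPKM in 1st instar larvae, and at 93.4, 65.1 and 70.2 FPKM in 3rd instar larvae. The 3rd instar libraries lay above all other whole-animal libraries. It was then at 18.6, 15.3 and 20.9 FPKM in 5th instar larvae, 35.2, 11.5 and 19.2 FPKM in pupae and 19.0, 10.9 and 13.6 FPKM in adults, and these later stages overlapped.

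The rise of LOC114361886 from the 1st to the 3rd instar was 3.34 ± 0.67 on the log2 scale (adjusted p = 0.0172, limma-trend) and its fall from the 3rd to the 5th instar was -2.0 ± 0.25 (adjusted p = 0.00544), the only one of 6 members tested that was called lower, where 4.08% of all genes were. No alternative setting changed this last call. In 3rd instar replicate 2 the summed midgut markers were at 13208 FPKM against 507 and 529 FPKM in the others, and LOC114361886 was lowest in that library. It was also lower in pupae (-1.87 ± 0.39, adjusted p = 0.00863) and in adults (-2.34 ± 0.28, adjusted p = 4.73e-04) than in 3rd instar larvae. With libraries scaled by their recovered fragments the difference between pupae and 3rd instar larvae was -0.74 and under the threshold. Among the 6 stages in order of mean level (3rd instar, pupa, 5th instar, adult, 1st instar, embryo), only the first neighbours differed by the test.

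An opposite-strand gene lies within LOC114361886. LOC114361887, annotated as 2-(3-amino-3-carboxypropyl)histidine synthase subunit 1, an enzyme of diphthamide synthesis, occupies 158202 to 159652 on the plus strand. The counting is not stated to use strand, and where the exons of both genes overlap their fragments cannot be told apart. LOC114361887 was at 21.3 ± 4.14 FPKM in embryos, 9.67 ± 2.48 in 3rd instar larvae, 5.90 ± 0.328 in 5th instar larvae and 6.15 ± 2.18 in fat body. In midgut and silk gland it was at 10.2 ± 1.22 and 10.4 ± 0.192 FPKM, above LOC114361886 at 3.70 ± 1.27 and 4.45 ± 0.997 FPKM. Among the stages it was highest in embryos, where LOC114361886 was lowest. In hemolymph, where LOC114361886 was highest, LOC114361887 was at 22.4 ± 0.43 FPKM. Its part in the low values of LOC114361886 was not tested.

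LOC114356121 was at 22.5, 19.3 and 18.5 FPKM in 3rd instar larvae and at no more than 12.5 FPKM in any other whole-animal library. It was at 0.197, 0.102 and 0.109 FPKM in embryos and at 0.0632, 0.0304 and 0.303 FPKM in adults. In the 5th instar it was at 1.11, 2.21 and 12.5 FPKM and in pupae at 2.55, 0.745 and 0.591 FPKM. Adults and embryos thus had almost none of it, with 10 and 29 fragments in 3 libraries, while the 5th instar libraries were spread more than 10-fold.

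LOC114356121 was higher in 3rd instar larvae than in embryos by 4.21 ± 0.23 on the log2 scale (adjusted p = 8.60e-06, limma-trend). Compared with the 3rd instar, the difference was -3.29 ± 0.34 in pupae (adjusted p = 4.43e-04) and -4.22 ± 0.26 in adults (adjusted p = 1.75e-05). Against the 5th instar the difference of -2.22 ± 0.65 did not pass (adjusted p = 0.0796), and without 5th instar replicate 3 it was -3.02 with an adjusted p of 0.0151. That library also had the highest summed fat body markers of its group, 11865 FPKM, the highest silk gland markers, 10146 FPKM, and the highest hemocyte markers, 746 FPKM. Their part in the result was not tested.

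In 1st instar larvae replicate 2 stood apart for all members but the short model LOC114354345, which had no fragment in any of the 3 libraries. LOC114356121 had 349 fragments in replicate 2 (10 FPKM) against 0 and 2 fragments in the others. LOC114359986 had 63 fragments against 1 and 3, and LOC114359501 35 against 9 and 0. The summed midgut markers of this library were also the highest of the group, at 4813 FPKM against 571 and 1011 FPKM, and so were the silk gland markers, at 1447 FPKM against 256 and 352 FPKM, and the hemocyte markers, at 312 FPKM against 227 and 164 FPKM. The part of these cells and tissues in the values of replicate 2 was not tested.

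From the 1st to the 3rd instar 4 of 5 members tested were called higher, where 7.72% of all genes were. The members other than LOC114361886 reached 1 FPKM in at most 1 of the 1st instar libraries and so could be tested only through the stage in which they were higher, and nothing is read from their count against that share. Besides LOC114361886 these were LOC114359986 (2.03 ± 0.50, adjusted p = 0.0371, limma-trend), LOC114359502 (1.38 ± 0.35, adjusted p = 0.0413) and LOC114363052 (1.62 ± 0.32, adjusted p = 0.0167). LOC114356121 had the difference of 3.21 ± 0.90 and did not pass (adjusted p = 0.0556). The labels pair no samples, but in this pair same-numbered libraries deviated alike across genes. With the replicate block LOC114356121 passed (adjusted p = 0.0429) and LOC114359986 did not (adjusted p = 0.0652). The 4 calls were lost when 1st instar replicate 1 or replicate 3 was left out, with adjusted p between 0.0727 and 0.168, and without 1st instar replicate 2 the difference of LOC114356121 was 4.35 with an adjusted p of 0.0015.

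The other subunit 1-like model did not follow LOC114356121 after the larval stages. LOC114359986 was at 8.61, 2.20 and 4.91 FPKM in 3rd instar larvae, at 1.06, 1.39 and 3.05 FPKM in 5th instar larvae, at 13.5, 1.18 and 3.77 FPKM in pupae and at 1.41, 1.28 and 2.77 FPKM in adults. The 3rd instar, 5th instar, pupal and adult libraries overlapped, and in pupae its SD (6.47 FPKM) was larger than its mean (6.14 FPKM). Between pupae and 3rd instar larvae its difference was -0.09 ± 0.72 (adjusted p = 0.930, limma-trend) and between adults and 3rd instar larvae -1.04 ± 0.44 (adjusted p = 0.0832). It was at most 0.182 FPKM in embryos, and it was higher than in embryos in the 3rd instar, 5th instar, pupa and adult.

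The short model LOC114354345 was seen in whole animals only at the 3rd and 5th instars, apart from 1 fragment in an embryo library. It was at 3.43, 3.07 and 0.605 FPKM in 3rd instar larvae, from 20 fragments, and at 0, 0 and 1.59 FPKM in 5th instar larvae, from 5 fragments. The 1st instar, pupal and adult libraries had none. The 3rd instar level was at least 9.99-fold higher than that of 1st instar larvae, at least 13.5-fold higher than that of pupae and at least 8.79-fold higher than that of adults, with the same limit of 3 fragments over a group. At this depth a lower level in those stages could not be detected.

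**Figure D3:**
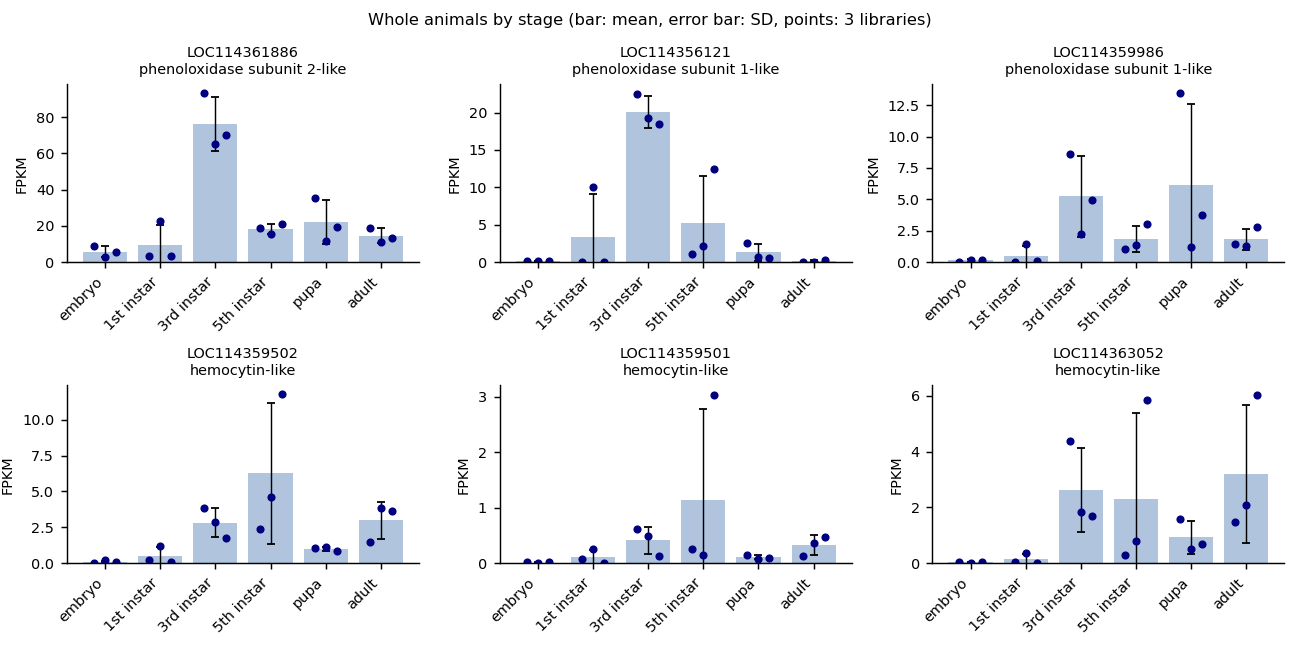
FPKM of 6 of the gene models in whole animals at 6 stages, with 3 libraries as points, the mean as a bar and the SD as an error bar, each panel on its own linear axis that starts at 0. LOC114361886 and LOC114356121 were highest in all 3 libraries of the 3rd instar, whereas the hemocytin-like models had single high libraries, such as 5th instar replicate 3 at 11.8 FPKM of LOC114359502.

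The hemocytin-like models stayed at or below 11.8 FPKM in all whole-animal libraries. LOC114359502 was at 3.83, 2.85 and 1.77 FPKM in 3rd instar larvae, at 2.38, 4.62 and 11.8 FPKM in 5th instar larvae, at 1.02, 1.09 and 0.815 FPKM in pupae and at 1.47, 3.81 and 3.65 FPKM in adults. The pupal libraries lay below all 3rd instar, 5th instar and adult libraries. LOC114363052 was at 4.38, 1.82 and 1.71 FPKM in the 3rd instar, 0.290, 0.782 and 5.86 FPKM in the 5th instar, 1.59, 0.495 and 0.688 FPKM in pupae and 1.47, 2.09 and 6.04 FPKM in adults, and these stages overlapped. LOC114359501 stayed under 1 FPKM in all whole-animal libraries but 5th instar replicate 3, which reached 3.03 FPKM, and it was tested in no pair of stages.

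LOC114359502 was lower in pupae than in 5th instar larvae (-1.66 ± 0.46, adjusted p = 0.0345, limma-trend), the only one of 4 members tested that was called, where 12.4% of all genes were. This call was lost with the replicate block (adjusted p = 0.0540) and when any pupal library was left out. Against the 3rd instar neither LOC114359502 nor LOC114363052 passed the test in pupae (-0.92 ± 0.26 and -0.88 ± 0.35) or in adults (0.03 ± 0.37 and 0.13 ± 0.47), whereas LOC114361886 and LOC114356121 were called lower in both. There 2 of 5 members tested were called lower in pupae, where 17% of all genes were, and 2 of 5 in adults, where 21.9% were. Whether the hemocytin-like models and the phenoloxidase subunits differ in this change was not tested.

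Between adults and pupae 4 members were tested and none was called by limma-trend, where 46.9% of all genes were called in either direction. At an unadjusted p under 0.05, 2 members differed, and limma-voom called 1, LOC114361886, at -1.24. LOC114359502 had an adjusted p of 0.0227 but a log2 fold change of 0.95, just under the threshold. Against the 1st instar, 1 of 4 members tested was called higher in the 5th instar (LOC114359502, 15% of all genes), 1 of 3 in pupae (LOC114359986, 19.3%) and 2 of 4 in adults (LOC114359502 and LOC114363052, 22.8%). Between adults and 5th instar larvae 1 of 5 members tested, LOC114356121, was called lower (-2.0 ± 0.63, adjusted p = 0.0300), where 24.7% of all genes were, and this call was lost when any adult library was left out.

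Against embryos, all members tested were called higher in the 3rd instar (5 of 5, where 32.7% of all genes were called higher), the 5th instar (4 of 4, 34.1%), the pupa (2 of 2, 31.7%) and the adult (4 of 4, 35.8%). A member with at most 0.197 FPKM in embryos could enter these tests only through the later stage. Between 1st instar larvae and embryos, where 34.6% of all genes were called higher, 1 member, LOC114361886, was tested and was not called (0.26 ± 0.71, adjusted p = 0.754, limma-trend), also not at an unadjusted p under 0.05 or by limma-voom. With libraries scaled by their recovered fragments LOC114361886 no longer passed in the 5th instar (0.33), pupa (1.34) or adult (0.15) against embryos. The effective library size by which the authors divided was 2.36 to 2.42 times the assigned fragments in embryos and 0.558 to 0.888 times in 3rd instar larvae.

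The proportion of the subunit 2-like to the subunit 1-like transcript was compared within each library, where a scaling between libraries cancels. In hemolymph LOC114361886 exceeded LOC114356121 by 1.96, 1.65 and 1.73 times. In whole 3rd instar larvae the ratio was 4.15, 3.37 and 3.80, above all hemolymph libraries. In 5th instar larvae it was 16.8, 6.93 and 1.67, in pupae 13.8, 15.4 and 32.5, and in adults 300, 357 and 44.8.

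The adult ratio rested on 1 to 7 fragments of LOC114356121 per library and is therefore known only to be large. The ratio of the means was 110 in adults and 319 without adult replicate 3, and in 1st instar larvae 2.88 and 108 without replicate 2. In the pupal libraries, with 25 to 114 fragments of LOC114356121, the ratio did not overlap that of hemolymph or of the 3rd instar. An exact permutation test of 3 libraries against 3 cannot give a p below 0.1, so these differences are given without a test. Whether fragments of the opposite-strand gene LOC114361887 were counted for LOC114361886, and their part in this ratio, was not tested.

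The subunit 1-like models changed places between stages. LOC114356121 exceeded LOC114359986 by 2.64 to 3.85 times in hemolymph and by 2.62 to 8.78 times in whole 3rd instar larvae. In pupae the ratio was 0.157 to 0.631 and in adults 0.0237 to 0.109, below 1 in all 6 libraries. Pupae and adults therefore held more of LOC114359986 than of LOC114356121, and the hemolymph and 3rd instar libraries held less.

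**Figure D4:**
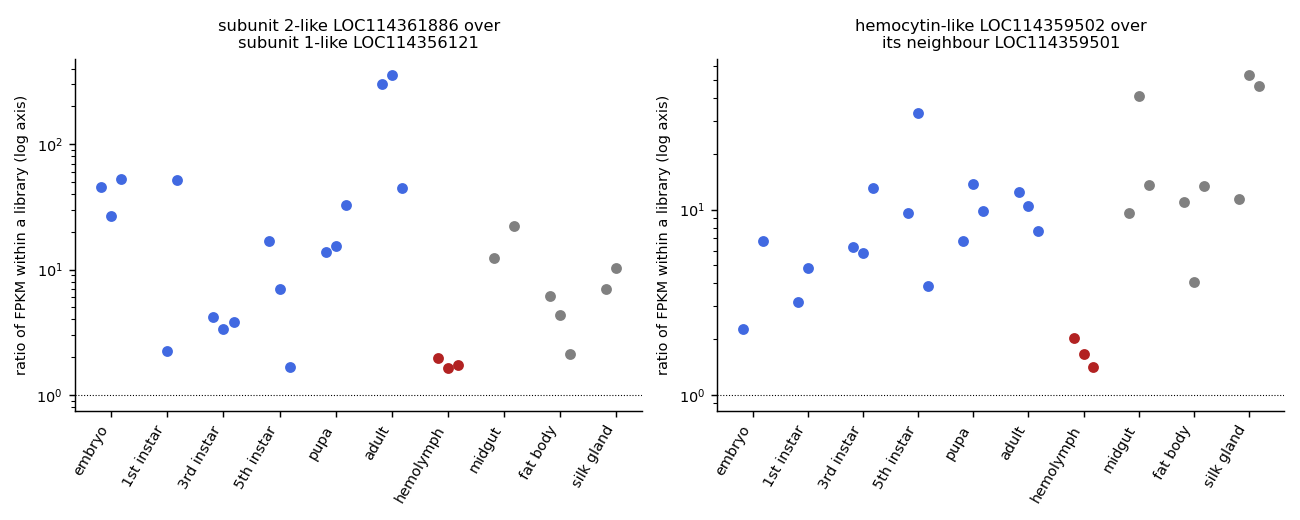
Ratio of FPKM within each library, on log axes, of subunit 2-like LOC114361886 to subunit 1-like LOC114356121 (left) and of the neighbouring hemocytin-like models LOC114359502 and LOC114359501 (right). Points are libraries (blue whole animals, red hemolymph, grey other tissues), and libraries in which the second model had no fragment have no point. Hemolymph lies between 1.65 and 1.96 on the left, where only 5th instar replicate 3 (1.67) falls in the same range, and between 1.41 and 2.02 on the right, below all other libraries.

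The neighbouring hemocytin-like models did not keep a constant ratio either. LOC114359502 exceeded LOC114359501 by 2.02, 1.67 and 1.41 times in hemolymph, where each had at least 14798 fragments per library. In the 25 other libraries with a fragment of both, the ratio ran from 2.26 to 53.5 with a median of 9.86. In silk gland it was between 11.4 and 53.5, with 2 to 7 fragments of LOC114359501 per library, and in 5th instar replicate 3, with 299 fragments, it was 3.89. No library outside hemolymph had a ratio as low as those of hemolymph. Models of U5 spliceosomal RNA lie on the opposite strand within LOC114359502 and LOC114363052, and had between 0 and 3 fragments each over all 30 libraries.

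Profiles were compared by Pearson's r over the 30 libraries on the log2(FPKM + 1) scale, as a description, since all libraries of a group share their origin and the 3 hemolymph libraries weigh most. Among the members r was between 0.869 and 0.968 over 30 libraries. Over the 18 whole-animal libraries it was between 0.363 and 0.833, with the highest value between LOC114361886 and LOC114356121. LOC114359502 and LOC114363052 had an r of 0.831 there and LOC114361886 and LOC114359501 had the lowest.

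Other annotated genes were considered if they reached 1 FPKM in 3 or more libraries. That level was reached by 15738 gene models, counting unannotated models and the members. The gene most like LOC114359501 was its upstream neighbour LOC114359500, SCO-spondin-like. Its r was 0.997 over 30 libraries and 0.925 over the 27 libraries without hemolymph. LOC114359500 was at 126 ± 18.1 FPKM in hemolymph and at most 0.292 FPKM in fat body. Next came LOC114366054, von Willebrand factor-like (0.992 and 0.829), at 72.0 ± 17.1 FPKM in hemolymph, and LOC114358604, which has no description (0.981 and 0.568). LOC114359502 was most like LOC114356061, trypsin 3A1-like (0.949 and 0.724), followed by the uncharacterized LOC114353123 and LOC114353299. LOC114363052 was most like LOC114353123 (0.941 and 0.684), LOC114359500 and LOC114357036, which is draper-like, in Drosophila a receptor for the uptake of dying cells.

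For the phenoloxidase subunits, LOC114359563, aminoacylase-1A-like, came first for LOC114361886 (0.977, and 0.900 without hemolymph) and second for LOC114356121 (0.979 and 0.886) and LOC114359986 (0.970 and 0.802). LOC114356121 was most like LOC114365729, microvitellogenin-like (0.979 and 0.910), and LOC114365762, also microvitellogenin-like, was in the third place for it. LOC114352368, a BTB/POZ domain-containing protein 3-like model, was first for LOC114359986 and second for LOC114361886, and draper-like LOC114357036 was the third for LOC114359986. LOC114361934, which has no description and lies 2128 bases from LOC114361886 on the opposite strand, was the third for it (0.953 and 0.779) and second for LOC114354345, and was at 736 ± 247 FPKM in hemolymph. LOC114354345 was most like LOC114353123 (0.976 and 0.784) and the third was LOC114354226, aminoacylase-1-like.

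Models described as phenoloxidase-activating were also higher in hemolymph than in midgut and silk gland, but fat body shared them. Of 16 models described as phenoloxidase-activating, 14 were tested and 14 were called higher in hemolymph than in midgut and 14 of 14 than in silk gland. Against fat body 7 of 14 were called higher and none lower. Of all genes 17.9%, 18.8% and 16.5% were called higher against midgut, silk gland and fat body. Their median log2 fold change was 6.07, 5.79 and 2.25 against midgut, silk gland and fat body, where the median of all genes was -0.03, 0.01 and 0.02. The count against fat body was 3 when fat body replicate 3 or any hemolymph library was left out and 11 with libraries scaled by their recovered fragments. Called with the largest difference from fat body was LOC114360752 (120 ± 25.1 against 1.34 ± 1.13 FPKM) and with the smallest LOC114365830 (193 ± 34.8 against 88.2 ± 53.4 FPKM), both described as phenoloxidase-activating factor 2-like. The authors class both as serine protease homologs, with a substitution in the catalytic triad, so the list is not one of active proteases only. The summed level of the 16 models was 3552 to 4799 FPKM in hemolymph and 766 to 3960 FPKM in fat body, so that these groups overlapped, unlike those of every phenoloxidase subunit.

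Models described as recognition proteins were divided between tissues, and whether each acts in the cascade was not tested. Lower in hemolymph were 25.3% of all genes tested against midgut, 23.3% against fat body and 21.3% against silk gland. Of 18 recognition models (peptidoglycan recognition proteins, beta-glucan-binding proteins and a hemolymph lipopolysaccharide-binding protein), 1 was called higher and 9 lower in hemolymph than in fat body among 17 tested, 9 higher and 7 lower than in midgut among 18, and 11 higher and 1 lower than in silk gland among 14. LOC114352122, peptidoglycan-recognition protein LB-like, was at 3.48 ± 2.06 FPKM in hemolymph and 512 ± 115 FPKM in fat body. LOC114360360, peptidoglycan-recognition protein SB2-like, was the only one called higher than in fat body (14.8 ± 0.379 against 4.19 ± 0.977 FPKM).

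Models for the supply of phenols and the later steps of melanin synthesis (16) were more often called lower than higher in hemolymph. Against fat body 1 was called higher and 6 lower of 10 tested, against midgut 3 and 5 of 11, and against silk gland 2 and 6 of 10. All genes also leaned lower. Against fat body 16.5% of them were called higher and 23.3% lower, against midgut 17.9% and 25.3%, and against silk gland 18.8% and 21.3%. LOC114354521, aromatic-L-amino-acid decarboxylase, which makes dopamine from DOPA, was higher in hemolymph than in fat body (6.68 ± 3.43 against 2.14 ± 0.666 FPKM), and LOC114363199, described as protein yellow-like, was lower (0.420 ± 0.124 against 141 ± 58.7 FPKM). The 6 inhibitor models were found by descriptions as serpins or related protease inhibitors, and whether they act on the cascade was not tested. Against fat body 1 was called higher and 2 lower in hemolymph among 3 tested. Against midgut 2 were called higher and none lower among 2, and against silk gland 2 higher and 2 lower among 4. LOC114361553, leukocyte elastase inhibitor-like, was at 62.0 ± 2.64 FPKM in hemolymph and 15.5 ± 14.4 FPKM in fat body, and LOC114353205, serpin B6-like, at 0.161 ± 0.150 and 452 ± 534 FPKM.

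From the 3rd to the 5th instar, where LOC114361886 fell, 0 of 14 activating models tested were called by limma-trend and 0 by limma-voom, 2 at an unadjusted p under 0.05, and their median log2 fold change was 0.63 against 0.05 for all genes, of which 6.81% were called higher and 4.08% lower. From the 1st to the 3rd instar 9 of 14 were called higher, where 7.72% of all genes were, with the median at 1.71 against -0.01 for all genes. From pupa to adult 5 of 15 were called lower and none higher, where 25% of all genes were called lower.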

How the data were processed

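RNA of 30 libraries, 3 for each of 6 stages and 4 tissues, was sequenced. The authors trimmed reads with fastp, mapped them to the O. furnacalis assembly and quantified them with RSEM. The submitters' processing notes list HISAT2 2.0.5 and the mouse build mm10, whereas the scaffold names are those of O. furnacalis. The authors deposited 1 table whose header names no unit. Its values were taken as FPKM deposited by the authors, because value times model length was a whole multiple of a constant of each library (100% of values up to 200 fragments, tolerance 0.02). This constant gave the fragments of each model. All 7 models matched the RefSeq gene table, whose assembly version differs, and none of its coordinates was used. Sequences of the models were not used here.

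Pairs of groups were compared with limma-trend on log2(FPKM + 1), for genes that reached 1 FPKM in 3 or more of 6 libraries (2 where 1 library was left out). Calls needed an adjusted p (Benjamini-Hochberg) below 0.05 and an absolute log2 fold change of 1 or more. Each of 15 pairs of stages, 6 pairs of tissues and hemolymph against whole 3rd instar larvae was fitted alone. The replicates are separate pools, and p-values measure the spread between them. The members, gene lists and tests were chosen with earlier results of these data known. Named are all members, the 3 genes most like each member, and of each pathway list the genes called in hemolymph against fat body with the highest and the lowest log2 fold change. No label pairs samples across groups. Deviations of same-numbered libraries correlated clearly in every replicate only between 1st and 3rd instars (0.379, 0.666 and 0.145 for replicates 1, 2 and 3). Whether those samples were paired is not known.

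The alternatives were a pseudocount of 0.1, no filter, a single fit of all libraries, a replicate block, scaling by the recovered fragments, limma-voom on them, and leaving out each library. On simulated data with 200 changed genes limma-trend called 195 for hemolymph against fat body (10806 genes tested, 10 false calls). The simulation gave all genes the same dispersion and changed no gene with few expected fragments. Its rate therefore does not hold for members with few fragments or a wide spread. Python 3.11.15, numpy 2.4.6, pandas 2.3.3, matplotlib 3.10.9, R 4.3.3 and limma 3.58.1 were used.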

Additional observations from a re-analysis of the deposited data

Results flagged for a closer look

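Outside the annotated models, an unannotated model described as similar to phenoloxidase subunit 1 had a signal in hemolymph far above that of the other tissues. It was chosen after its values were seen and enters no count of members. It lies on the minus strand of NW_021135019.1 from 82567 to 86124, 2637 bases from subunit 1-like LOC114359986 on the same strand. It was at 396, 286 and 417 FPKM in hemolymph (mean 366 ± 70.4, SD, n = 3), and at 0.368 ± 0.138 FPKM in midgut, 1.73 ± 0.725 FPKM in fat body and 1.55 ± 0.941 FPKM in silk gland. In whole animals it was at 20.2, 6.41 and 3.83 FPKM in 3rd instar larvae and at 0.313 ± 0.172 FPKM in adults. By limma-trend it was higher in hemolymph than in fat body by 7.09 ± 0.27 on the log2 scale (adjusted p = 1.52e-06). It was lower in adults than in 3rd instar larvae (-2.81 ± 0.52, adjusted p = 0.00367, limma-trend), a comparison in which LOC114359986 was not called (-1.04 ± 0.44). Because the model was chosen with these values seen, the adjusted p-values only describe it and nothing is concluded from them. Whether the 2 models are parts of 1 gene was not tested.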

How the results depend on the processing

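All 7 members stayed higher in hemolymph than in each other tissue and than in whole 3rd instar larvae under every alternative run, in 336 of 336 values, with log2 fold changes between 4.26 and 14.8. No value of a member that was called in the main fit changed sign under an alternative. Sign changes of values called in neither fit were not counted. Of 887 values of a member under an alternative, 815 kept their side of the threshold, 59 lost a call and 13 gained one. They cover members called in the main fit in any pair. Members not called there are covered only in hemolymph against other samples and between neighbouring stages, so calls gained in other pairs are not counted. The number of member calls between tissues was 21 to 24 and between stages 27 to 35 (main values 23 and 30), and when 1 library was left out 22 to 24 and 23 to 36. With the replicate block the counts were 23 and 28. Apart from LOC114356121 and LOC114359986 between the 1st and 3rd instars, the replicate block ended 2 calls. These were LOC114359986 in pupae against 1st instar larvae (adjusted p = 0.0797, limma) and LOC114359502 in pupae against 5th instar larvae (adjusted p = 0.0540, limma). In those pairs the correlations of same-numbered libraries were at most 0.128. Of the activating models, 7 were called higher in hemolymph than in fat body, 3 with no filter, 11 with values scaled by the recovered fragments, 11 with limma-voom and 3 to 9 when 1 library was left out. The cause was not tested. Scaling by the recovered fragments moved the median log2 fold change of all genes by 0.77 to 1.47 in hemolymph against another tissue, where members then differed by 6.12 to 11.1, and by -1.42 to -0.36 in a later stage against embryos. Depth limits the values of LOC114356121 in adults, of LOC114359501 outside hemolymph and of LOC114354345, which rest on few fragments per library.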
